A study of Mus musculus with 18 samples.

Results

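The ABC drug efflux transporters described here are 7 genes, Abcb1a, Abcb1b, Abcc1, Abcc2, Abcc3, Abcc4 and Abcg2. They were chosen by name, with earlier results of these data known. An array probe was taken for a member when the RefSeq transcript it is designed for belongs to that gene. This gave 14 of 41174 probes, and 1 probe per gene, the brightest, represents 7 of the 26073 genes tested. The red signal of 6 members was well above background on all 18 arrays, and that of Abcc2 on 7.

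The animals were male C57BL/6 mice. Their food was a control diet or contained the medicinal herb St. John's wort (SJW), and they received injections of saline or of the colon carcinogen azoxymethane (AOM). The 6 groups of 3 biological replicates were tissue without tumour after saline on the control diet or on SJW, tissue without tumour after AOM on the control diet or on SJW, and tumours after AOM on the control diet or on SJW. Sample RNA carried the red dye Cy5. The green dye Cy3 marked 1 commercial pool of Swiss Webster mouse RNA, made of thymus, testicle, spleen, ovary, lung, liver, kidney, heart, embryo and brain, in the same orientation on all 18 arrays. Values are log2 ratios of sample over pool, so that 0 means as much signal as in the pool and a difference of 1 is a doubling. The pool holds no intestine, and its own content of each transcript differs by gene, so levels are compared between groups and not between genes. The age and dose are not in the labels used here, nor whether tumour and non-tumour samples after AOM came from the same animals.

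ATP-binding cassette (ABC) transporters use ATP to pump substrates across membranes. In intestinal epithelium, P-glycoprotein (made from the gene pair Abcb1a and Abcb1b in mice), Abcg2 (BCRP) and Abcc2 (MRP2) sit in the apical membrane and return drugs and toxins to the lumen, while Abcc1 (MRP1) and Abcc3 (MRP3) export towards the blood, and Abcc4 (MRP4) occurs on either side depending on the cell. Hyperforin from SJW is a known activator of the nuclear receptor PXR (Nr1i2), which induces P-glycoprotein and CYP3A enzymes together. AOM is converted in the body into a methylating agent.

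The 12 arrays of tissue without tumour lay on 3 slides, each with 1 array of every such group, and shared a scan day. The 6 arrays of tumours came from 2 further slides with a different scan day. Tumour tissue and slide or scan therefore cannot be told apart, while the AOM and diet comparisons can be made within slides. The 12 arrays without tumour had median red intensities of 133 to 375, and the tumour arrays had 336.5 to 786.5. The red signal was well above background for 66% to 91.8% of probes. On 6 arrays, 5 of them non-tumour, the reference was bright, with a median green intensity over 500. The labels name the tissue as small intestine and, in the extraction protocol, liver. Colon markers were high over the pool on the non-tumour arrays (list means 3.23 to 4.96, 7 genes). In the control saline group they ran from 2.89 (Hoxb13) to 7.76 (Car1), with Slc26a3 at 7.08. List means of small-intestine markers lay between -0.58 and 0.49 (9 genes). In the control saline group those genes ran from -0.62 (Onecut2) to 2.01 (Fabp6), with lactase, Lct, at 0.11 and sucrase-isomaltase, Sis, at 0.80. The pool's own content of each gene bears on these levels. Hepatocyte markers were below the pool on all arrays (list means -1.997 to -0.66, 4 genes). The tissue is called intestine below.

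P-glycoprotein transcripts had the widest spread of group means of the 7 members among the groups without tumour. Abcb1a measured 3.08, 2.88 and 3.72 (log2 over pool, replicates 1 to 3) after saline on the control diet, and 4.60, 3.89 and 5.18 after saline on SJW. After AOM it measured 2.66, 2.80 and 2.87 on the control diet, and 2.88, 2.18 and 2.47 on SJW. The tumours were lower again, at 1.34, 1.62 and 1.00 on the control diet and 0.88, 1.40 and 0.98 on SJW. All 3 SJW saline arrays thus stood above every other array, and all 6 tumour arrays stood below every other array. The diets overlapped after AOM and in tumours. Here and below, overlap of groups is a description, as its share over all genes was not counted.

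Abcb1b, the other P-glycoprotein gene, followed the same order of group means. Its brightest probe, A_52_P170509, measured 3.23, 3.45 and 3.37 after saline on the control diet and 4.55, 4.0 and 4.18 on SJW. It fell to 2.01, 2.23 and 2.33 after AOM on the control diet and to 2.78, 1.84 and 1.74 on SJW, and was lowest in tumours, at 0.54, 1.61 and 1.35 on the control diet and 0.57, 1.62 and 0.63 on SJW. For both genes the order of means was SJW saline, control saline, control AOM, SJW AOM, control tumour and SJW tumour. Only the pairs of diets after AOM and in tumours overlapped between neighbours in that order.

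**Figure D1:**
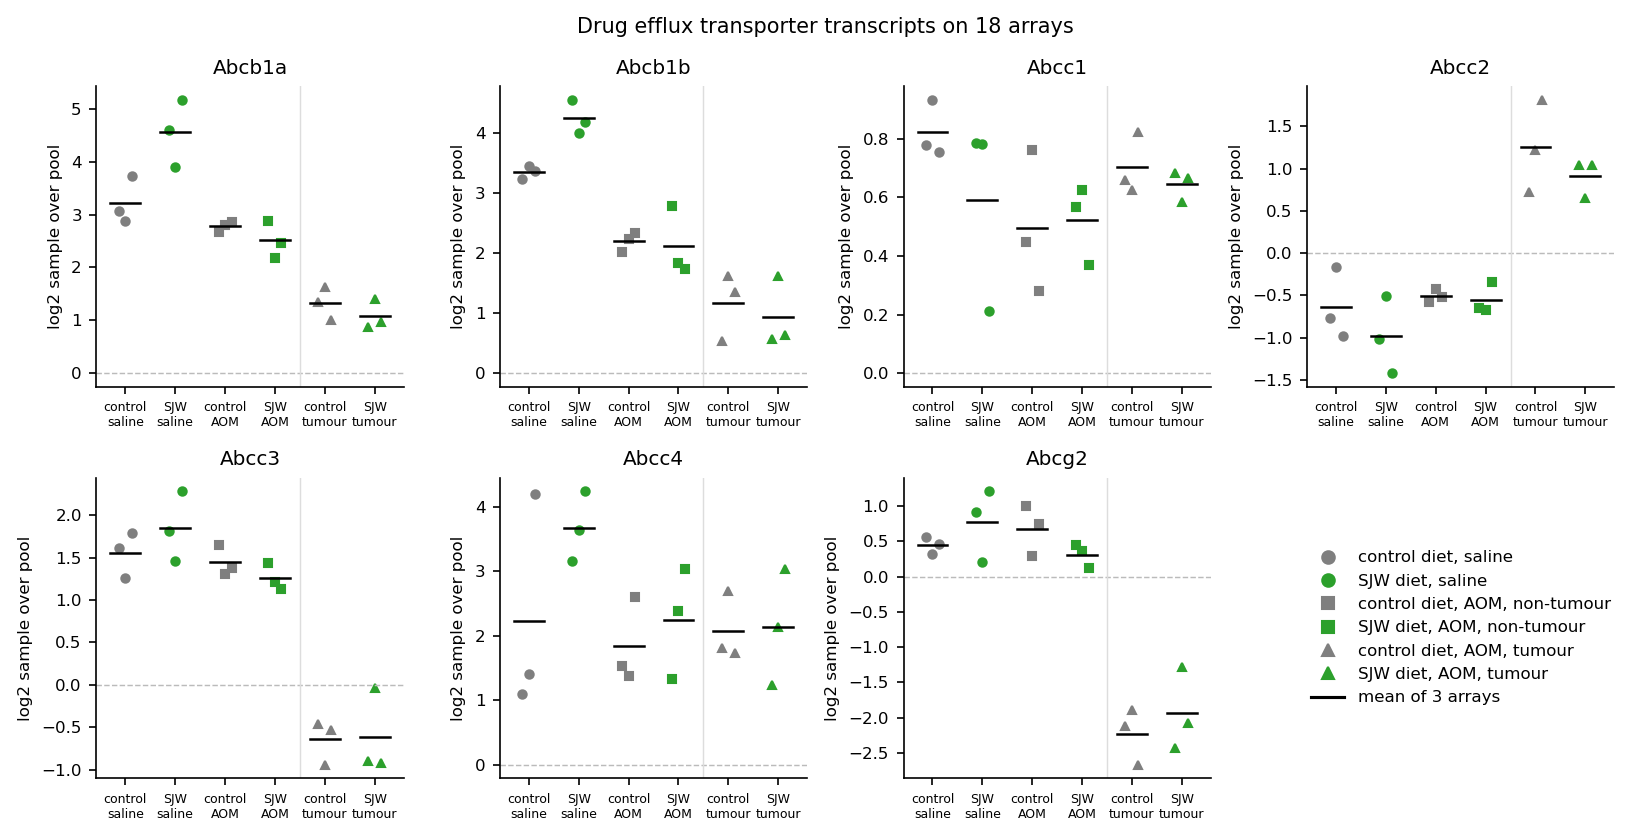
Log2 ratio of sample over pool (y axis) on each of 18 arrays, by group (x axis), for the brightest probe of each transporter gene; points are arrays, black bars are means of 3 arrays and the dashed line is the level of the pool. The y axes differ between panels. All 3 SJW saline arrays lie above every other array for Abcb1a; Abcc3 and Abcg2 drop below 0 in all 6 tumours, and Abcc2 rises above 0 there.

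Abcb1a and Abcb1b lie side by side on mouse chromosome 5, with Abcb4 next to them, in the gene order of the RefSeq table. Their promoters are shown because the genes had the same order of group means while the sequences differ. Each run is 300 bases, from 250 before to 50 after the RefSeq start, on assembly GRCm38.p6: chr5:8566841-8567140, plus strand, for Abcb1a and chr5:8797897-8798196, plus strand, for Abcb1b. Capitals mark matches, on either strand, to the motifs searched: the GC box GGGCGG, the CCAAT box CCAAT, the NRF2 core TGACNNNGC, the AhR core GCGTG, and the nuclear receptor elements AGGTCA and AGTTCA, singly or as a direct repeat with 4 bases between.
Abcb1a: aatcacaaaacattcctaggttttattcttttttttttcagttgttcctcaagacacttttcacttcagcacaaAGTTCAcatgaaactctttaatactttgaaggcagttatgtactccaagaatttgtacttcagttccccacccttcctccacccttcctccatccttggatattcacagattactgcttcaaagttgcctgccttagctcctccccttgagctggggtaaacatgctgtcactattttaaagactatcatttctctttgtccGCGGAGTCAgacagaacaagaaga
Abcb1b: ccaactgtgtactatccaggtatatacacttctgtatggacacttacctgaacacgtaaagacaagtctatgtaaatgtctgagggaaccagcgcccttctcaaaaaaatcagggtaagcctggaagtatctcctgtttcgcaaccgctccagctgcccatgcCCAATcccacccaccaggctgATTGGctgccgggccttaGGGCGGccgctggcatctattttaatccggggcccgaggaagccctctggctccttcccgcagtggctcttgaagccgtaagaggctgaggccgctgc
The Abcb1a run has 40.3% G and C, with 1 AGTTCA element and 1 NRF2 core, and neither GC nor CCAAT box. The Abcb1b run has 55% G and C, 1 GC box and 2 CCAAT boxes. Of 32851 promoter runs of this length, 35.7% hold a GC box, 37.4% a CCAAT box, 14% an AGTTCA element and 12.4% an NRF2 core. The direct repeats, which also count as single elements, are in 0.0152% (AGGTCA) and 0.0122% (AGTTCA) of all runs and in none of the member runs. A match is a description of letters only. The table holds 8 starts of 5 members.

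After AOM on the SJW diet, both P-glycoprotein genes were lower than after saline. Abcb1a differed by -2.05 ± 0.29 (log2, SE, 3 against 3 arrays), 4.13-fold lower, and Abcb1b by -2.13 ± 0.32, 4.36-fold lower, each with an adjusted p of 0.0198 (limma, Benjamini-Hochberg over all genes). By p-value they ranked 3 and 6 of 26073 genes. In this comparison 296 genes, 1.14% of those tested, passed the threshold of 0.05, and 2 of the 7 members did, both lower. Within slides 1 to 3 the Abcb1a difference was -1.72, -1.71 and -2.71 and that of Abcb1b was -1.77, -2.16 and -2.44. These 2 calls were lost without SJW saline replicate 3 (adjusted p 0.0682 for both), without SJW AOM replicate 2 (0.0762) or without SJW AOM replicate 3 (0.0638), with differences that stayed between -2.16 and -1.74. With the bright-reference arrays left out, which leaves 1 SJW saline array, assumed to vary like the other groups, the differences were -1.38 for Abcb1a (adjusted p 0.223) and -1.88 for Abcb1b (adjusted p 0.358). With the bright reference as a block they were -1.92 and -1.98 (adjusted p 0.0634 for both).

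The remaining members were not called in that comparison. Abcc4, a pump of cyclic nucleotides and nucleotide analogues, differed by -1.43 ± 0.69 (adjusted p 0.269), Abcc3, which exports glucuronides, by -0.60 ± 0.25 (adjusted p 0.201), and their groups did not overlap. Abcg2 differed by -0.47 ± 0.30 and Abcc1 by -0.07 ± 0.16. Abcc2 was not well above background on any of these 6 arrays, so no difference is given.

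On the control diet, AOM against saline gave 152 genes past the threshold, 0.583% of those tested, and 0 of the 7 members. Abcb1b came closest, at -1.16 ± 0.32 (unadjusted p 0.00222, adjusted p 0.0998), with -1.22, -1.22 and -1.03 within slides 1 to 3 and no overlap of the groups. Abcb1a differed by -0.45 ± 0.29 (adjusted p 0.551), with -0.41, -0.07 and -0.86 within slides. Of the members, 1 had an unadjusted p under 0.05, against 3546 of all genes. Abcg2 differed by 0.23 ± 0.30, Abcc3 by -0.11 ± 0.25, Abcc1 by -0.33 ± 0.16 and Abcc4 by -0.40 ± 0.69, none past the threshold. Abcc2 was well above background on 0 of 3 control saline and 1 of 3 control AOM arrays, so no difference is given.

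The question whether SJW changed the AOM difference was put to the difference of the differences. For Abcb1a this was -1.60 ± 0.41 (unadjusted p 0.00138, adjusted p 0.476), with -1.31, -1.64 and -1.85 within slides 1 to 3. For Abcb1b it was -0.97 ± 0.45 (unadjusted p 0.0471, adjusted p 0.532), with -0.56, -0.94 and -1.41 within slides. Neither passed, and limma called 0 of 26073 genes (0%), while 2435 genes and 2 members had an unadjusted p under 0.05. The 2 AOM comparisons are thus not shown to differ.

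Markers of other cell types are given beside these differences. Of all genes, 0.583% passed for AOM on the control diet and 1.14% on SJW. The smooth muscle list mean ranged from -1.43 to 0.94 after saline and from 0.36 to 2.72 after AOM (7 genes measured, 0 called in either diet, with overlapping ranges). Macrophage list means ranged from -1.50 to -0.81 after saline and from -0.76 to 0.46 after AOM, with 3 of 6 genes called higher on SJW and 0 on the control diet, and fibroblast list means from -2.58 to -1.81 and from -1.30 to 0.10, with 2 of 6 called higher on SJW and 0 on the control diet. Paneth cell markers were called higher for 2 of 6 genes on the control diet and 3 of 6 on SJW. Enterocyte list means were 1.49 to 2.13 after saline and 1.36 to 1.72 after AOM, with 1 of 9 genes called lower on SJW (median difference -0.26). Colon list means on SJW were 3.91 to 4.96 after saline and 3.23 to 3.98 after AOM, with 1 of 7 genes called lower and a median difference of -1.28; on the control diet 0 of 7 were called (median -0.40). The chloride exchanger Slc26a3 went from a mean of 6.82 to 4.91 on SJW and the water channel Aqp8 from 4.29 to 2.87. SJW AOM replicate 3 also had pancreatic acinar markers at a list mean of 3.87, against 1.89 or less on the other non-tumour arrays. The part of these values in the P-glycoprotein differences was not tested. In such bulk samples, fewer cells of a type and less RNA per cell cannot be told apart.

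After saline, SJW against control asked whether the herb itself moved the pumps. Abcb1a was 1.33 ± 0.29 higher (2.52-fold, 95% interval 1.64 to 3.87), the 80th smallest p of all genes (0.000328), yet its adjusted p was 0.105. The groups did not overlap and the difference was 1.53, 1.02 and 1.45 within slides 1 to 3. Abcb1b was 0.90 ± 0.32 higher (1.86-fold, adjusted p 0.316), also without overlap, with 1.32, 0.55 and 0.82 within slides. limma called 0 of 26073 genes here (0%), against 2787 at an unadjusted p under 0.05, 2 of them members. The SJW saline arrays are shared with the AOM comparison on SJW, so the 2 sets of values are not independent.

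Control saline replicate 3 weighed on that result. Its Abcb1a value, 3.72, was the highest of its group, and its Abcc4 value was 4.20 against 1.09 and 1.41 in the other replicates. Without it, limma called 291 genes, and Abcb1a at 1.58 (adjusted p 0.0259) and Abcc4 at 2.43 (adjusted p 0.048) were among them. SJW saline replicates 1 and 3, the highest for Abcb1a, were bright-reference arrays. With such arrays left out, 1 array stays per diet, SJW saline replicate 2 and control saline replicate 1. They measured 3.89 and 3.08 for Abcb1a, 4.0 and 3.23 for Abcb1b, and 3.64 and 1.09 for Abcc4.

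Abcc4 on its brightest probe, A_51_P232597, was the most variable member within groups. It measured 1.09, 1.41 and 4.20 after saline on the control diet (SD 1.71) and 3.15, 3.64 and 4.24 on SJW. After AOM it measured 1.53, 1.38 and 2.60 on the control diet and 1.33, 2.39 and 3.04 on SJW, and in tumours 1.82, 2.70 and 1.73 on the control diet and 1.24, 2.14 and 3.03 on SJW. The difference of SJW over control after saline was 1.44 ± 0.69 (95% interval -0.02 to 2.91, adjusted p 0.473), with 2.06, 2.23 and 0.04 within slides 1 to 3. Abcc1, Abcc3 and Abcg2 differed by between -0.23 and 0.33 between the diets after saline, and Abcc2 was not well above background there.

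After AOM, and in tumours, SJW and control values overlapped on the brightest probe of each member. The share of all genes that overlapped was not counted, so this is not a result about the members. After AOM the other probes of Abcc3 (A_52_P622067, 1.86 to 2.12 on the control diet and 1.49 to 1.72 on SJW) and Abcc4 (A_52_P630867, 0.91 to 2.1 and 0.75 to 0.89) did not overlap, with an adjusted p of 1 for each. On the brightest probes the differences after AOM lay between -0.37 (Abcg2) and 0.41 (Abcc4). In tumours they lay between -0.34 (Abcc2) and 0.30 (Abcg2). limma called 0 genes in either comparison (0% and 0%), with 829 and 1565 genes and 0 members at an unadjusted p under 0.05. For Abcb1a the 95% interval of SJW over control was -0.89 to 0.35 after AOM and -0.85 to 0.39 in tumours, so changes of up to about that size in log2 were not resolved. Abcc4 had the widest interval in tumours, -1.41 to 1.52.

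**Figure D2:**
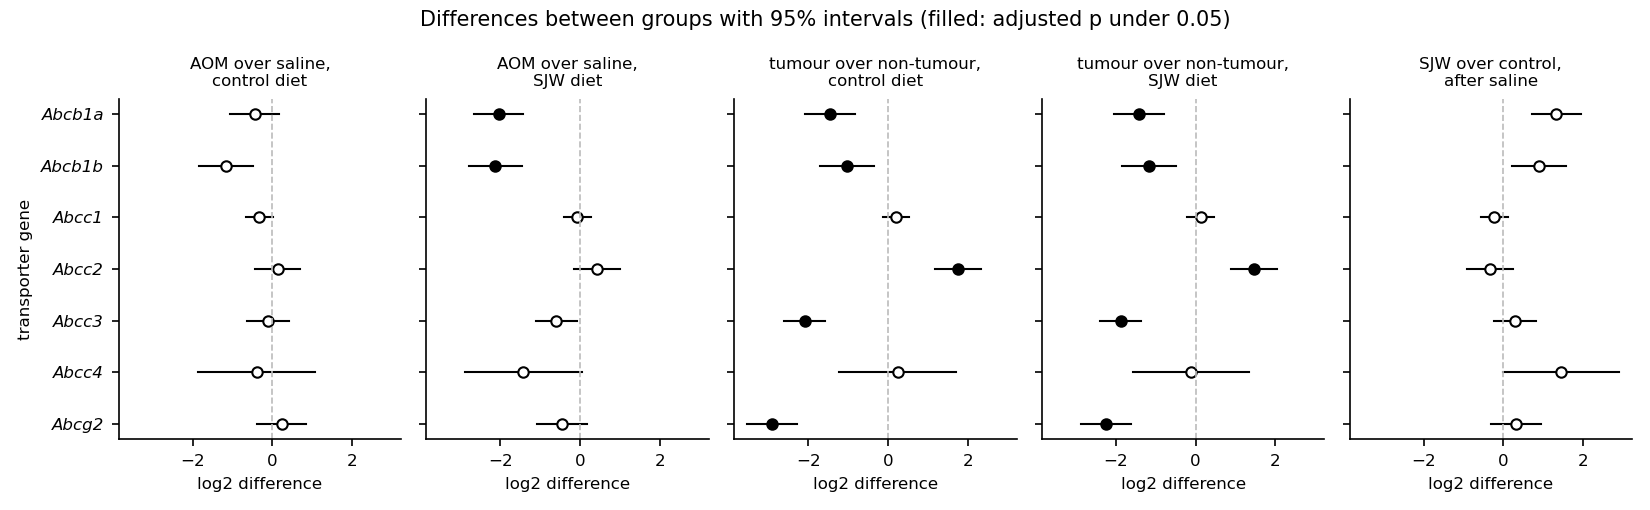
Log2 difference (x axis) of each transporter (y axis) in 5 comparisons, with 95% intervals from the fit of 18 arrays; filled points have an adjusted p under 0.05. Both P-glycoprotein genes are filled in the AOM comparison on SJW, 5 of 7 members are filled in each tumour comparison, and none is filled for SJW over control after saline. Abcc2 was mostly not well above background outside tumours, and its probe was kept only through the tumour groups.

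In tumours, 5 of the 7 members differed from tissue without tumour after AOM, on either diet. On the control diet 32% of all genes passed and on SJW 24.6%, so a call is common here. Of the calls on the control diet, 39.8% were higher, and 67.1% with median centring, under which the members that passed had the signs given here. Abcg2, Abcc3, Abcb1a and Abcb1b were lower and Abcc2 was higher in both diets, while Abcc1 and Abcc4 did not pass. Abcc2 was kept by the probe filter only through the tumour groups, so its call is not independent of that filter. The median difference over the 7 members was -1.02 on the control diet and -1.18 on SJW, against -0.06 and -0.07 over all genes.

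Abcg2, which exports sulfated and planar compounds, had the largest tumour difference of the members. After saline it measured 0.57, 0.33 and 0.47 on the control diet and 0.92, 0.21 and 1.21 on SJW. In tissue without tumour after AOM it measured 1.00, 0.30 and 0.74 on the control diet and 0.46, 0.36 and 0.13 on SJW. Tumours measured -2.12, -1.89 and -2.67 on the control diet and -2.43, -1.28 and -2.08 on SJW. No tumour array came within 1 log2 unit of a non-tumour array. The difference was -2.91 ± 0.30 on the control diet (7.5-fold lower, adjusted p 5.75e-06) and -2.24 ± 0.30 on SJW (4.74-fold lower, adjusted p 7.32e-05). Its other probe, A_52_P336142, gave -2.27 and -1.42, both past the threshold over all probes.

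Abcc3, the basolateral exporter of glucuronides and bile salts, measured 1.61, 1.26 and 1.80 after saline on the control diet and 1.82, 1.46 and 2.29 on SJW. After AOM it measured 1.65, 1.31 and 1.37 on the control diet and 1.44, 1.21 and 1.13 on SJW. Tumours were at -0.46, -0.94 and -0.53 on the control diet and at -0.90, -0.04 and -0.93 on SJW, below every non-tumour array. The difference was -2.09 ± 0.25 (4.26-fold lower, adjusted p 2.02e-05) and -1.88 ± 0.25 (3.68-fold lower, adjusted p 6.98e-05). The other Abcc3 probe, A_52_P622067, gave smaller differences of -1.18 and -0.93 (adjusted p 0.00594 and 0.0292 over all probes).

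Abcb1a was 2.74-fold lower in tumours on the control diet (-1.46 ± 0.29, adjusted p 0.00153) and 2.68-fold lower on SJW (-1.42 ± 0.29, adjusted p 0.00237). Abcb1b was 2.03-fold lower on the control diet (-1.02 ± 0.32, adjusted p 0.0225) and 2.26-fold lower on SJW (-1.18 ± 0.32, adjusted p 0.0137). The Abcb1b calls were the least firm of the tumour calls. On the control diet that call was lost without control AOM replicate 2 (adjusted p 0.052) or 3 (0.067) or without control tumour replicate 1 (-0.71, adjusted p 0.109), and on SJW without SJW AOM replicate 1 (0.0744) or without SJW tumour replicate 1 (0.0639) or 3 (0.0625). Median centring in place of loess also lost the Abcb1b call (-0.66, adjusted p 0.184, on the control diet and -0.88, adjusted p 0.0905, on SJW). On the control diet it was lost as well with the red channel alone (-0.78, limma adjusted p 0.099) and with the scanner's log ratio (-0.88, 0.0504). The mean of all kept probes lost it too (-0.46, 0.168). On SJW it was lost with non-uniform spots left out (-0.80, 0.238).

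Abcc2, the apical exporter of conjugated bilirubin and glutathione conjugates, moved the other way. Its red signal was well above background on 1 of 12 non-tumour arrays, control AOM replicate 2, and on all 6 tumour arrays. With saline it read -0.76, -0.17 and -0.97 on the control diet and -1.01, -0.51 and -1.42 on SJW. With AOM, outside tumours, it read -0.58, -0.43 and -0.52 on the control diet and -0.65, -0.68 and -0.34 on SJW. In tumours it measured 0.72, 1.22 and 1.82 on the control diet and 1.05, 0.65 and 1.04 on SJW, above every non-tumour array. The fit gave 1.76 ± 0.27 over non-tumour tissue on the control diet (adjusted p 0.000199) and 1.47 ± 0.27 on SJW (adjusted p 0.00111). Because the probe was dim outside tumours, these folds are uncertain. The probe was kept only through the tumour groups, where it is high, so these calls are not independent of the filter. On the red channel the tumour mean was set against the larger of the probe's own signal and the lowest signal well above background. For the control diet after saline this was the probe's own signal. Tumours were 2.88-fold higher than it, where the ratios gave 3.7-fold. On SJW the red-channel fold came out above the fold of the ratios (3.21 against 2.77 over non-tumour tissue, 3.92 against 3.71 over saline). No lower bound is therefore given on either diet. Without dye swaps, these values are open to dye bias.

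Abcc1, a broadly expressed exporter of glutathione conjugates, was the flat member. Its brightest probe ranged from 0.21 to 0.93 over all 18 arrays, group means ran from 0.50 (control AOM) to 0.82 (control saline), and every pair of neighbours in the order of means overlapped. In tumours it differed by 0.21 ± 0.16 on the control diet (95% interval -0.13 to 0.54) and by 0.12 ± 0.16 on SJW (-0.21 to 0.46). No comparison called any of its 3 probes.

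Set against tissue after saline, tumours had 4 members lower and 1 higher on each diet. Of all genes, 32.9% passed on the control diet and 36.2% on SJW. The higher member was Abcc2, kept by the probe filter only through the tumour groups, so its call is not independent of that filter. Abcb1a was 11.1-fold lower in SJW tumours than after saline on SJW (-3.47 ± 0.29) and Abcb1b 9.87-fold lower (-3.30 ± 0.32). On the control diet Abcb1a was 3.74-fold (-1.90) and Abcb1b 4.53-fold (-2.18) lower. Whether these differences from saline differ between the diets was not tested. Abcg2 differed by -2.68 and -2.71 and Abcc3 by -2.20 and -2.48 on the control diet and on SJW. Abcc4 on SJW was -1.54 ± 0.69 (adjusted p 0.0924), and 0.023 with the replicate number as a block. The tumour and saline arrays share neither slide nor scan day, and the comparisons share their tumour arrays with those above.

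Whether the difference of tumours from non-tumour tissue after AOM differed between diets was tested for every gene. For this limma called 0 of 26073 (0%), with 1079 genes and 0 members at an unadjusted p under 0.05. Abcg2 had the largest such value among the members, 0.66 ± 0.42 (adjusted p 1).

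Markers of several cell types differed in the same tumours, where 32% of all genes passed on the control diet and 24.6% on SJW. Enterocyte list means were 1.36 to 2.13 on the 12 non-tumour arrays and -0.004 to 0.46 on the 6 tumour arrays (9 of 9 genes measured), with 7 of 9 genes called lower on each diet and 1 called higher on the control diet. The colon list means were 3.23 to 4.96 without tumour and -0.19 to 1.56 in tumours, with 5 of 7 genes called lower on the control diet and 4 of 7 on SJW, and all 6 goblet cell genes were called lower on either diet. Stem and progenitor genes, such as Lgr5, were higher, 4 of 4 on each diet (list means 0.23 to 1.22 without tumour and 1.81 to 2.68 in tumours). Smooth muscle genes were called lower for 6 of 7 on each diet (median differences -3.03 and -2.51). Fibroblast genes were called higher for 4 of 6 and lower for 1 on the control diet, and higher for 2 of 6 on SJW. Macrophage genes were called higher for 2 of 6 on each diet, mast cell genes for 3 of 4 on the control diet and 1 of 4 on SJW, and neutrophil genes for 3 of 4 and 0 of 4. B and plasma cell genes were called lower for 2 of 4 on each diet, as were T cell genes. The part of cell composition in the transporter differences was not tested.

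Different probes of 1 transcript disagreed for Abcb1b and Abcc4, and this bears on both genes. Abcb1b has 3 probes for the same RefSeq transcript. A_51_P245368 followed the brightest probe (r 0.971 over 18 arrays, a description) and gave -1.61 ± 0.33 for AOM on SJW (adjusted p 0.0315 over all probes) and -1.23 and -1.93 for tumours on the control diet and on SJW. A_52_P92772 did not follow it (r -0.487). That probe lay near the pool on the non-tumour arrays, between -0.27 and 0.40, and higher in tumours, between 0.46 and 1.70. It gave -0.08 ± 0.27 for AOM on SJW, and 0.88 ± 0.27 and 0.78 ± 0.27 for tumours over non-tumour tissue (adjusted p 0.0219 and 0.0463), the opposite sign of the other 2 probes.

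Abcc4 has 2 probes, with r -0.154 between them over 18 arrays. With saline, A_52_P630867 read 0.06, 0.17 and 0.57 on the control diet and 0.43, 0.75 and 0.18 on SJW. With AOM, outside tumours, it read 1.09, 2.1 and 0.91 on the control diet and 0.83, 0.75 and 0.89 on SJW. In tumours it measured 2.09, 3.11 and 2.20 on the control diet and 1.92, 2.44 and 3.29 on SJW. Control saline replicate 3, at 4.20 on the brightest probe, was at 0.57 here. By this probe Abcc4 was higher in tumours than in tissue without tumour, by 1.1 ± 0.35 on the control diet (adjusted p 0.0242) and 1.73 ± 0.35 on SJW (adjusted p 0.00214), and higher than after saline by 2.20 and 2.1. It gave 0.19 ± 0.35 for SJW over control after saline. Probe sequences are not used here, so which part of the transcript, or which other transcript, each probe reports was not tested. The direction of Abcb1b and of Abcc4 in tumours thus depends on the probe, while Abcb1a and Abcc2 have 1 probe each.

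**Figure D3:**
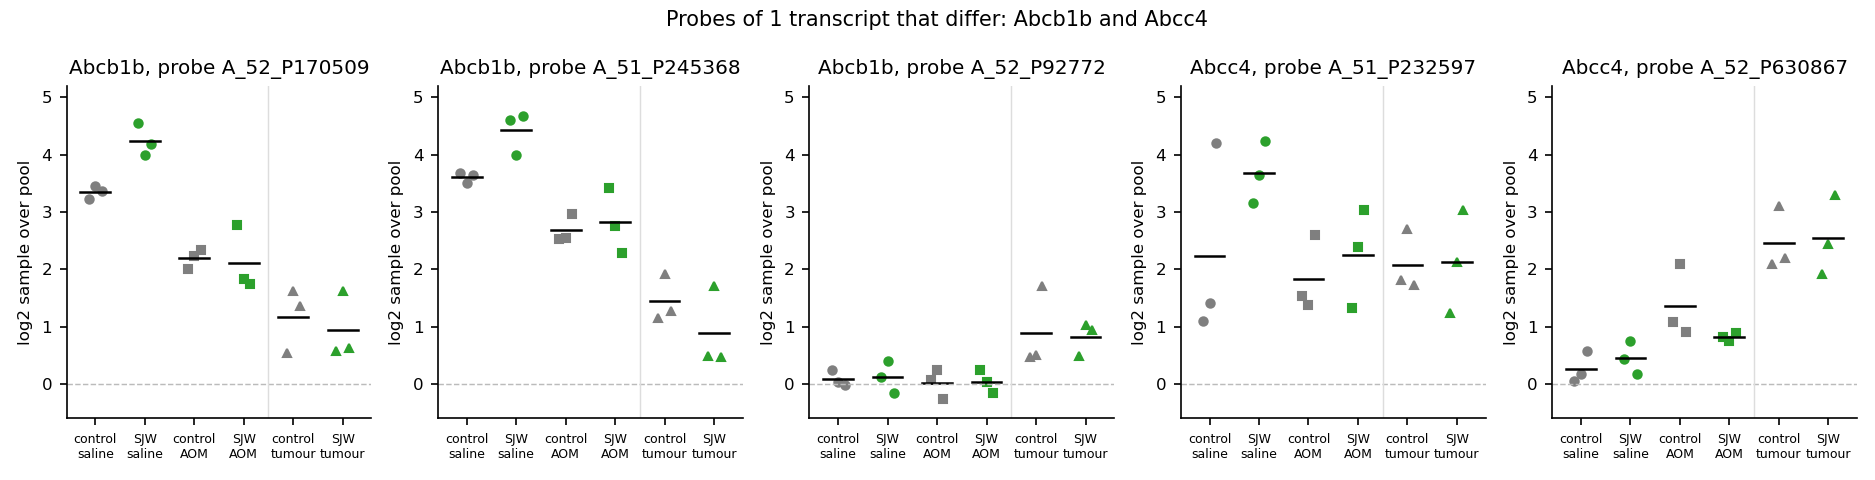
Log2 ratio of sample over pool (y axis) by group (x axis) for the 3 probes of Abcb1b and the 2 probes of Abcc4, 1 panel per probe on a common scale; points are arrays, bars are means of 3. A_52_P92772 stays near 0 outside tumours and rises in them, unlike the other Abcb1b probes; the Abcc4 probes differ in their pattern over the groups, with A_52_P630867 lowest after saline and highest in tumours.

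Signal was not at the limit for most members. The red intensity of the Abcb1a probe ranged from 329 to 3498 over a local background of 57 to 73, and that of the Abcc3 probe from 954 to 13517.5. No member spot was saturated. The Abcc2 probe ranged from 67.5 to 1132.5 over a background of 56 to 70.5.

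Across the 18 arrays Abcb1a and Abcb1b had r 0.941, Abcc3 and Abcg2 r 0.973, and Abcc2 against Abcg2 r -0.963. These are descriptions. The arrays share slides and 1 reference pool, and the split into 6 tumour and 12 other arrays weighs on each value. Among 16217 named genes, Abcb4, the phospholipid flippase of bile canaliculi and the chromosomal neighbour of Abcb1b, was most like Abcb1b (r 0.98), followed by Appl2 (0.953) and Cyp4f13 (0.951). Acaa1b (0.966), Slc22a21 (0.958) and Tmem98 (0.956) were most like Abcb1a. Fa2h (0.989), Ethe1 (0.989) and Pgap4 (0.987) were most like Abcg2, and Prkaa2 (0.988), Sqor (0.987) and Sema4a (0.986) most like Abcc3. Onecut2 (0.978), Bax (0.964) and Aqr (0.962) were most like Abcc2. For Abcc1 (Gjb5, 0.853) and Abcc4 (Ccnk, 0.819) no gene came as close.

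Abcb4 differed by -1.82 ± 0.34 after AOM on SJW (adjusted p 0.0272) and by -1.02 ± 0.34 on the control diet (adjusted p 0.172). SJW over control after saline was 0.89 ± 0.34 (adjusted p 0.354). In tumours it was -0.70 ± 0.34 on the control diet (adjusted p 0.129) and -1.29 ± 0.34 on SJW (adjusted p 0.0119). Abcb1a, Abcb1b and Abcb4 are close paralogs, and cross-hybridisation between them was not tested.

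Of the ABC family beyond the 7 members, 39 of 42 genes were measured. After AOM on SJW 2 of 39 passed, Abcb4 lower and the cholesterol exporter Abcg1 higher, at 0.94 (adjusted p 0.049). That is 5.13% of the list, against 1.14% of all genes. On the control diet 0 of 39 passed. In tumours 3 were higher and 10 lower on the control diet, and 6 higher and 9 lower on SJW, 33.3% and 38.5% of the list against 32% and 24.6% of all genes. Abcb6, a porphyrin transporter (-1.55 and -1.22), the peroxisomal Abcd3 (-1.11 and -0.77), Abca7 (-1.17 and -0.98) and Abca3 (-1.14 and -0.72), both lipid transporters, were lower on both diets. The channel subunit Abcc8 (SUR1) was at -1.06 and -1.36. The list's median on the control diet was -0.22, against -0.06 over all genes. With median centring it was 0.07 against 0.11 over all genes.

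PXR and its relative CAR (Nr1i3) switch on drug-metabolising enzymes along with efflux pumps, and 18 such targets were all measured. After AOM on SJW 3 of 18 were lower and none higher, 16.7% of the list against 1.14% of all genes. The list's median was -1.26, against -0.02 over all genes. The 3 were Ces2a, a carboxylesterase (-2.61 ± 0.53, adjusted p 0.0326), the cytochrome P450 Cyp2c55 (-2.06 ± 0.48, adjusted p 0.049) and the bilirubin glucuronosyltransferase Ugt1a1 (-2.15 ± 0.50, adjusted p 0.049). The count was 1 with median centring, and 0 with the scanner's log ratio, with the red channel alone or without SJW AOM replicate 3. The medians were -1.19 to -0.955. Over all genes, median centring called 113 higher and 26 lower, the scanner's log ratio 50 and 38, and the red channel 4 and 4. The counts of 0 under the last 2 are thus not a result about the list. Leaving out the bright-reference arrays, which leaves 1 SJW saline array, gave a median of -0.31. On the control diet 0 of 18 passed (median -0.26), with Cyp2c29 at -1.16 (adjusted p 0.0759) and Cyp3a11 at -0.94 (adjusted p 0.0981). After saline, SJW over control was positive for 15 of 18 (median 0.35, against 0.01 over all genes), and 0 passed. Cyp2c55 was at 1.80 (adjusted p 0.162), Cyp3a44 at 1.42 (0.239), Cyp3a25 at 0.64 (0.272) and Ugt1a1 at 1.504 (0.273), while Cyp3a11, a classical PXR target of mouse liver, was at 0.02. With the bright-reference arrays left out, 6 of 18 were positive (median -0.15), with 1 array left in each of these groups. After AOM the SJW difference was positive for 8 of 18 (median -0.02).

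In tumours 11 of 18 targets were lower on the control diet and 9 on SJW, none higher (medians -1.21 and -0.95). These are 61.1% and 50% of the list, against 32% and 24.6% of all genes. Ces2c (-4.48 and -3.72), Cyp2c55 (-4.08 and -4.51), Cyp3a13 (-3.58 and -2.73) and Cyp2c29 (-2.50 and -2.18) were among them, as was Gstm1, a glutathione transferase (-1.76 and -1.29). With median centring 7 and 6 of 18 were lower and none higher, and with the scanner's log ratio 12 and 8 were lower and 1 and 2 higher. Over all genes, median centring called 1854 and 1282 lower and 3777 and 2703 higher. The scanner's log ratio called 3246 and 3038 lower and 4848 and 3394 higher.

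**Figure D4:**
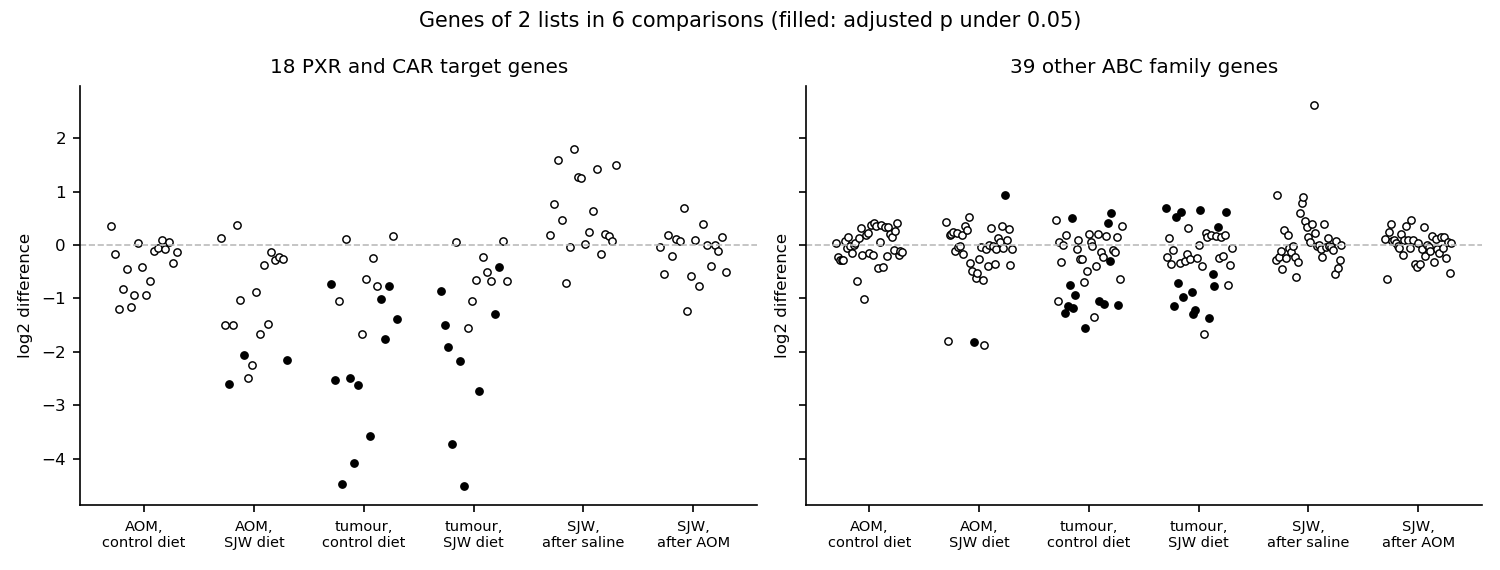
Log2 difference (y axis) of single genes in 6 comparisons (x axis: AOM over saline, tumour over non-tumour, SJW over control) for 18 PXR and CAR targets (left) and 39 other ABC genes (right); each point is a gene, in alphabetical order from left to right within a comparison, and filled points have an adjusted p under 0.05. The targets lie mostly below 0 after AOM on SJW and in tumours, and 15 of 18 lie above 0 for SJW after saline with none filled.

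Of the sensors and transcription factors that control these genes, 15 of 16 were measured. None passed after AOM on either diet or for SJW. In tumours 11 of 15 were lower on the control diet and 8 of 15 on SJW, none higher: the vitamin D receptor Vdr (-2.93 and -2.92), the bile acid receptor Nr1h4 (-2.69 and -1.91), Hnf4a (-1.15 and -1.40) and Arnt (-0.85 and -0.51) had the smallest p. The PXR gene Nr1i2 was at -1.37 ± 0.34 (adjusted p 0.00677) and -1.25 ± 0.34 (adjusted p 0.0152), and CAR, Nr1i3, at -0.13 and -0.03, not called. The 11 and 8 called are 73.3% and 53.3% of the list, against 32% and 24.6% of all genes. With median centring 6 and 4 of 15 were lower and 1 was higher on each diet. Over all genes that setting called 1854 and 1282 lower and 3777 and 2703 higher.

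NRF2, the sensor of oxidants and electrophiles, induces several Abcc pumps, and its 12 listed targets were all measured. In tumours 3 were higher and 2 lower on the control diet, and 3 higher and 1 lower on SJW. These are 41.7% and 33.3% of the list against 32% and 24.6% of all genes, not far from the background. Heme oxygenase Hmox1 (1.19 and 1.94), the cystine carrier Slc7a11 (1.63 and 1.41) and Gsta4 (0.67 and 0.57) were higher, and the glutathione-synthesis subunit Gclc (-0.92 and -0.81) was lower. After AOM on the control diet the glutathione peroxidase Gpx2 was higher, at 1.34 ± 0.29 (adjusted p 0.0473), and none passed on SJW. That 1 gene is 8.33% of the list, against 0.583% of all genes.

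Uptake carriers that work in series with the pumps were measured for 14 of 15. In tumours 4 of 14 were lower on each diet and none higher, 28.6% of the list against 32% and 24.6% of all genes, which is near the background. The organic anion carrier Slco2b1 (-1.64 and -1.02), the bile acid exporter subunit Slc51b (-1.74 and -1.28) and the carnitine carrier Slc22a5 (-0.72 and -0.73) were lower on both. The peptide carrier Slc15a1 was at -1.499 on the control diet (adjusted p 0.0131). After AOM on SJW 1 passed, Slco3a1, higher at 0.99 (adjusted p 0.049). That 1 gene is 7.14% of the list, against 1.14% of all genes.

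Among 7 genes for proteins that anchor pumps at the membrane, ezrin (Ezr, -0.73 and -0.56), the scaffold Slc9a3r1 (NHERF1, -1.46 and -1.14) and caveolin (Cav1, -1.90 and -1.83) were lower in tumours on both diets, and moesin (Msn, 1.06 and 0.71) was higher. The tumour calls are 57.1% of this list on each diet, against 32% and 24.6% of all genes. After AOM on SJW Msn was also higher, at 1.26 ± 0.22 (adjusted p 0.0198). It was the only call of 7, 14.3% of the list against 1.14% of all genes.

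The Abcc2 promoter is shown because Abcc2 was the member that was higher in tumours: chr19:43782058-43782357, plus strand, GRCm38.p6, with capitals as above.
Abcc2: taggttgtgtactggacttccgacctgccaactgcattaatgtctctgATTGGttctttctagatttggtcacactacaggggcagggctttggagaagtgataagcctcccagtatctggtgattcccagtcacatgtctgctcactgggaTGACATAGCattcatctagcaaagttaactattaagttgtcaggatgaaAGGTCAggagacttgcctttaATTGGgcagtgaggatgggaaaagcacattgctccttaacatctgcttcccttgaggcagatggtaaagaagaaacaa
It holds 2 CCAAT boxes, both on the minus strand, 1 AGGTCA element and 1 NRF2 core. An AGGTCA element is in 16.3% of all promoter runs. The 3 listed Abcg2 starts hold 0, 2 and 4 GC boxes, and the 2 Abcc4 starts hold 3 and 0. The AhR core, in 32.4% of runs, matched 2 times at 1 Abcc4 start and once at 1 Abcg2 start.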

How the data were processed

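RNA of 18 samples was measured on two-colour Agilent arrays. Per the file headers, scans were read with Agilent Feature Extraction 10.10.1.1 (GE2_1010_Sep10, annotation on mm9). The deposited spot and background intensity values are medians over pixels, without subtraction. The log10 ratio (red over green), as deposited, had been background-corrected and dye-normalized by that software. The deposited log2 table followed the scanner's ratio on each array (r 1, rounded), which settles direction but not scale. For scale, the Abcc2 difference for AOM on the control diet was 2.141 by the table and by the scanner's ratio in log2. The table is not centred (medians -0.031 to 0.342).

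Background was corrected with normexp (offset 50) and ratios by loess with control spots at weight 0. Population outliers were left out. A probe was kept if red was well above background on all 3 arrays of any group (34081 of 41174 probes). The brightest kept probe of a gene was used, which gave 26073 genes, 9274 without a symbol. Names and promoters came from RefSeq (GRCm38.p6); 27050 probes matched. limma 3.58.1 in R 4.3.3 fitted all 18 arrays (12 residual degrees of freedom), with Benjamini-Hochberg adjustment over all genes within each of 11 comparisons and a threshold of 0.05. Single probes were tested in 1 fit of all kept probes. The number of arrays limits the precision. The fit was tested on simulated data. Median rather than mean spot signals were used.

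The members, lists, comparisons and other settings were chosen with earlier results of these data known. Named beyond the 7 members were, per list and comparison, genes among the 4 with the smallest p, and the 3 genes of most similar pattern per member; Nr1i2, Nr1i3 and Cyp3a11 were added after their values were seen, and a gene named for 1 diet was given for both. Other settings covered normalization, filters, probes, blocks and left-out replicates.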

Additional observations from a re-analysis of the deposited data

How the results depend on the processing

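The 22 member differences that passed were recomputed 425 times, and 388 kept their sign and side of the threshold, 29 were weaker and 8 turned. All 8 belong to Abcb1b, through probe A_52_P92772 or the deposited table, which holds that probe but not the other 2. The 55 that did not pass were recomputed 1162 times, with 15 called. Loess with Aquantile leaves ratios unchanged by construction.

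Of the 7 members, AOM on the control diet called 1 with the scanner's log ratio and 1 with the deposited table (Abcc2, 2.14, where red was well above background on 1 of these 6 arrays, so the size is not interpretable). AOM on SJW called 0 with the red channel alone, 1 with the deposited table and 1 with non-uniform spots left out. It called 0 with only the arrays compared and 0 with the bright reference as a block. Over all genes these settings, in that order, called 4, 40, 23, 0 and 6 higher and 4, 26, 21, 0 and 1 lower. The counts of 0 are thus not a result about the members. Leaving out 1 replicate gave 0 to 2 members. SJW after saline gave 0 to 2 on leaving out 1 replicate. With non-uniform spots left out, tumours called 3 against non-tumour tissue on SJW, 3 against saline on the control diet and 3 on SJW. Only 4 or 5 members then had values. Abcb1b had a value against non-tumour tissue on SJW and did not pass (-0.80, limma adjusted p 0.238). Over all genes these comparisons called 1250, 2330 and 2049 higher and 2274, 3756 and 4123 lower. The bright-reference settings were chosen after seeing the data.

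By the deposited table Abcb1b was 1.08, 1.03, 0.83 and 0.86 in tumours (against non-tumour on the control diet and SJW, then against saline), and by A_52_P92772 0.88, 0.78, 0.80 and 0.70. Abcc4 was 1.72, 2.41 and 2.31 by the table and 1.73, 2.20 and 2.10 by A_52_P630867 in the last 3 of these, with its main value below 0; the cause was not tested.

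With the replicate number as a block, 2 members passed for AOM on SJW, 5, 5, 5 and 6 in the tumour comparisons and 0 elsewhere, and only the Abcc4 call changed. Over all genes that block called 176 higher and 122 lower for AOM on SJW, and 105 and 30 on the control diet. In the tumour comparisons it called 3145, 2236, 3303 and 3392 higher and 4863, 3895, 4966 and 5721 lower. The numbers pair non-tumour arrays by slide; correlations of deviations of same-numbered pairs were -0.348 to 0.411, with 8 of 18 over 0.1, so the numbers were not taken as pairs.

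Over all genes, AOM called 0 to 389 on the control diet and 0 to 600 on SJW, and tumours 5486 to 8983, 3524 to 7992, 3336 to 9590 and 5255 to 9868, in the order above; SJW after saline called 0 to 291. Median centring moved the median of all genes in the tumour comparison on the control diet from -0.06 to 0.11 and the share of calls that were higher from 39.8% to 67.1%; the scanner's log ratio gave 59.9%. Members called under it kept their sign.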
